A study of Mus musculus with 9 samples.

Results

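The genes described here encode enzymes of heme biosynthesis: Alas1, Alas2, Alad, Uros, Urod, Cpox, Ppox and Fech. They were chosen by name. Each is given by 1 probe set, the brightest on average over all 9 arrays of those whose only symbol is that gene's. All 8 genes were found, with 19 such probe sets, among 18194 genes on the array. Gene expression was measured on Affymetrix mouse arrays, with total RNA of sorted myeloid progenitors and 3 arrays in each group. The first group came from K/L leukaemic mice, whose Cebpa alleles are both mutated, and the second from leukaemic mice that overexpress the transcription factor Sox4. The third was wild type. All mice are labelled as C57/BL6, as 2 to 4 months old and as a source of blood cells. The cells of every group were sorted as lineage-negative, Sca-1-negative and c-Kit-positive with low or positive Mac1, the FrII fraction of the labels. CD45.1-negative, CD45.2-positive cells are named for the leukaemic samples in their source names and for all samples in the extract protocol. How Sox4 was overexpressed, and whether the 3 arrays of a leukaemia come from separate clones, is not stated in the sources used here. The p-values below therefore measure the spread between these arrays.

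Heme is an iron-containing ring molecule that carries oxygen in haemoglobin and electrons in cytochromes, and it is the cofactor of myeloperoxidase and of the phagocyte oxidase. Its synthesis begins in mitochondria, where 5-aminolevulinate synthase joins glycine to succinyl-CoA, continues in the cytosol and ends in mitochondria with the insertion of iron. Alas1 encodes the synthase that most cells use and that heme itself holds down, while Alas2 encodes the synthase of red cell precursors, which the erythroid factor GATA1 switches on. Myeloid progenitors need heme for the peroxidase of their granules.

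Values are log2 intensities, with an n of 3 arrays per group. A change is a difference between group means on this scale ± its standard error, from 1 limma fit of all 9 arrays, and p-values are adjusted by the Benjamini-Hochberg method over 12866 tested genes at a threshold of 0.05. The filter on dim genes kept those above an array's own 40th percentile (4.84 to 4.95) on 3 or more of the 9 arrays. Of the heme genes 7 met this filter and Alas2 did not. Where every array of a group lay below its 40th percentile, the size of the change is given as a lower bound ("at least"), the brighter group's mean against the mean 40th percentile of the dim arrays. Because 3 arrays against 3 cannot give an exact permutation p below 0.1, none is given for single genes.

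Median log2 intensity lay between 5.43 and 5.55 over the arrays with 3 arrays in a group, a number that limits the precision. Wild type array 3 stood apart, with Pearson r of 0.979 and 0.977 to the other wild type arrays over the tested genes, against 0.992 to 0.994 within every other pair of replicates. Heme genes whose call or direction changed without it are given with both values. Changes of other genes are given from all 9 arrays only, and their sizes can depend on it. Sox4 measured 10.87, 10.52 and 10.62 in K/L cells, 9.73, 9.61 and 9.87 in Sox4 cells, and 3.84, 3.81 and 3.97 in wild type cells (1 of its 8 probe sets). Of the 6 Sox4 probe sets that met the filter, 4 rose and 0 fell in K/L cells, and 3 rose and 1 fell in Sox4 cells, against wild type. Cebpa rose by 0.97 in K/L and 0.99 in Sox4 cells, and its level does not check the mutations. Kit of the sort gate lay between 9.10 and 9.36 on all arrays. Itgam, which encodes Mac1, lay above the 40th percentile on 2 of 9 arrays with means of 3.83 ± 0.17 in K/L, 4.20 ± 0.25 in Sox4 and 4.91 ± 0.13 in wild type cells (SD). In such bulk samples, fewer cells of a type and less RNA per cell cannot be told apart.

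Sequence upstream of the gene starts is shown for Alas2, the erythroid synthase, and for Alad, Urod and Cpox, 3 of the genes that rose in both leukaemias below. Each run holds 200 bases, from base -250 to base -51 relative to the annotated start (the first of 2 for Alad), read 5′ to 3′ on the gene's strand, from RefSeq with build GRCm38.p6. Capitals mark AGATAA or TGATAA, the core bound by GATA factors, and the E-box CACGTG, searched on both strands.
Alas2, chrX:150547167-150547366, plus strand: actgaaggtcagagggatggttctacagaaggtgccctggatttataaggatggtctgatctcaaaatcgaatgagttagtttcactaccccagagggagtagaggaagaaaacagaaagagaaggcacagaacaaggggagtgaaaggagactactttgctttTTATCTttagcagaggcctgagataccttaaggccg
Cpox, chr16:58669958-58670157, plus strand: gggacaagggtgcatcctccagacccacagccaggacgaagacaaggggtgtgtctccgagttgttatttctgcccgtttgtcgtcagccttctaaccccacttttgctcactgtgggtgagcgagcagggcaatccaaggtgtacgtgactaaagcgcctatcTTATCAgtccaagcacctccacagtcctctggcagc
Alad, chr4:62520114-62520313, minus strand: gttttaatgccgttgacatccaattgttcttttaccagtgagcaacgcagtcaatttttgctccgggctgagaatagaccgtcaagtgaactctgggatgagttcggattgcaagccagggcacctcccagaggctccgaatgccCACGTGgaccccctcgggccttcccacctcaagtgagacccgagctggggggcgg
Urod, chr4:116994464-116994663, minus strand: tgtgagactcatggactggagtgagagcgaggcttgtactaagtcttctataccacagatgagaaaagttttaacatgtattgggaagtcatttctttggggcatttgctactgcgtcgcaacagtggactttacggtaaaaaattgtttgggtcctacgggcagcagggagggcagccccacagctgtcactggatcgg

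The GATA letters begin at base -86 in both Alas2 and Cpox and occur in 3 of the 10 windows of 7 heme genes, the other being the second start of Uros. The same letters occur in 14.2 percent of all 32851 windows of this length. CACGTG begins at base -105 of Alad and occurs in 2 of the 10 windows, the other being the first start of Uros, against 4.34 percent of all windows. The Urod window holds neither. The motifs were chosen after the sequences were read, and a match is a description of letters only.

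Setting K/L against wild type cells asks how leukaemic progenitors with mutant Cebpa differ from their normal counterparts. Alad, Urod, Cpox and Fech rose in K/L cells, by between 1.43-fold and 2.28-fold, and no heme gene passed the limma test in the other direction (0 of 7 also at an unadjusted p under 0.05). Alas1, Uros and Ppox did not pass. Another probe set of Ppox passed as lower in both leukaemias, as given below. Alas2 was not tested here, and with no filter on low values it passed as lower in K/L cells. The 4 calls among 7 tested genes stand beside 28.7 percent of all tested genes called higher and 21.6 percent called lower. The median change of the 7 genes was 0.52, and that of all tested genes was 0.05. For these 4 genes all K/L arrays also lay above all wild type arrays, beside 32.8 percent of all tested genes. Both compartments took part, with 2 of 3 cytosolic and 2 of 4 tested mitochondrial enzymes higher.

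Setting Sox4 leukaemic against wild type cells asks what the overexpressing leukaemia does to the same fraction. Alad, Urod, Cpox and Fech were the genes that rose here as well, by between 1.30-fold and 2.74-fold, and Alas1, Uros and Ppox did not pass. The smallest rise was that of Fech, and none of its other probe sets passed, as given below. These 4 of 7 stand beside 26.6 percent of all tested genes called higher and 21.1 percent called lower, with a median of 0.42 for the 7 genes and 0.03 for all. All Sox4 arrays lay above all wild type arrays for 5 of the 7, Alas1 in addition, beside 31 percent of all tested genes. Both comparisons share the 3 wild type arrays, so the match between them is not independent.

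**Figure D1:**
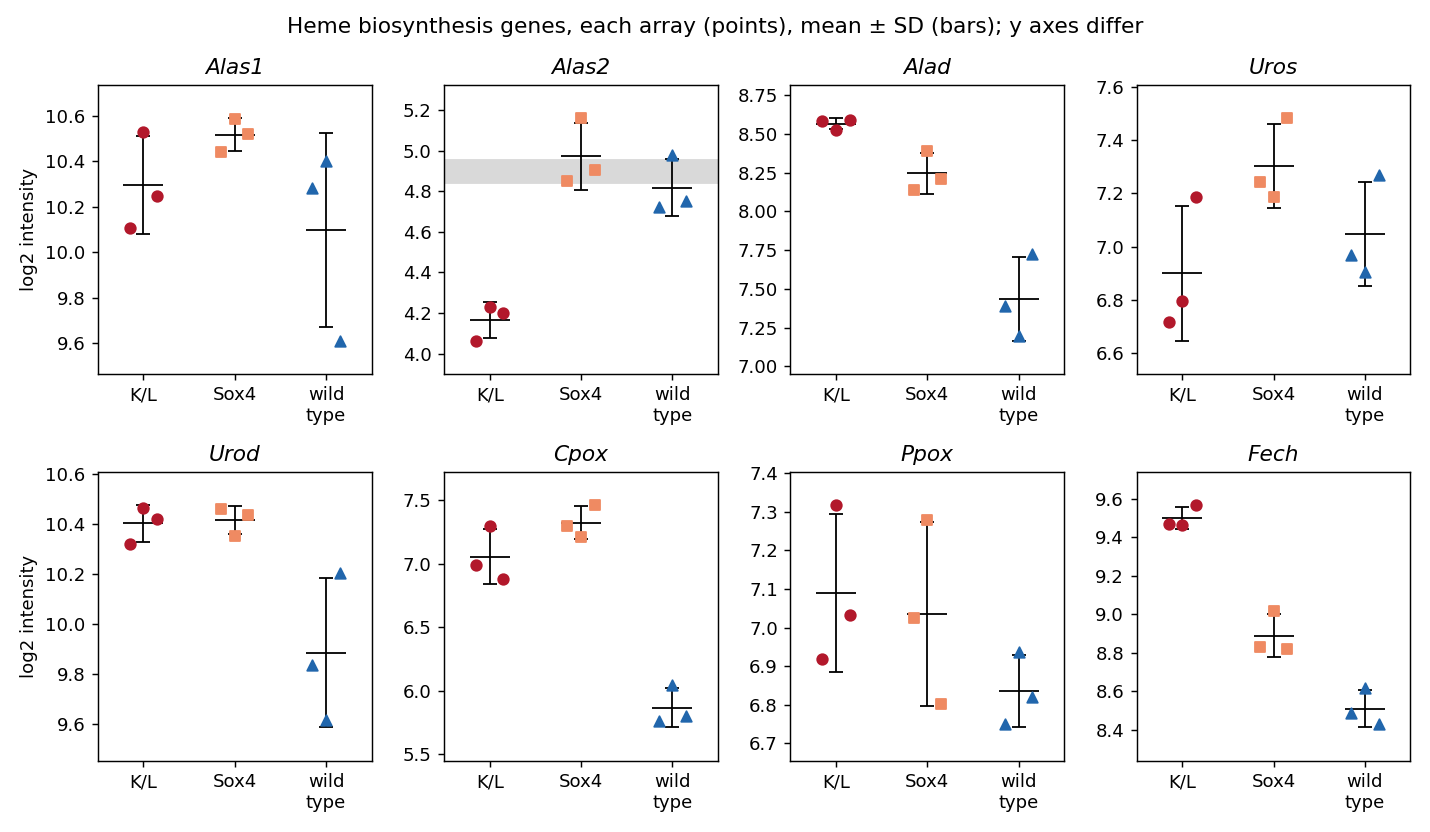
Log2 intensity of the 8 heme biosynthesis genes on each array (points), with the mean and SD of the 3 arrays of a group (bars), for K/L, Sox4 and wild type cells. All K/L and Sox4 points of Alad, Urod, Cpox and Fech lie above all wild type points, while Alas2 lies at or below the grey band that marks the 40th percentile of the arrays (4.84 to 4.95) on most arrays.

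Among the synthases that open the pathway, Alas1 (probe set 1424126_at) measured 10.11, 10.53 and 10.25 in K/L cells, 10.44, 10.59 and 10.52 in Sox4 cells, and 10.28, 10.40 and 9.61 in wild type cells. Wild type array 3 held its lowest value, and the K/L and wild type arrays overlapped. The change was 0.20 ± 0.20 in K/L cells (limma adjusted p = 0.438) and 0.42 ± 0.20 in Sox4 cells (limma adjusted p = 0.107), with 95% intervals of -0.24 to 0.63 and -0.02 to 0.86. Its other probe set, 1455282_x_at, gave -0.077 ± 0.18 in K/L cells (limma adjusted p = 0.747) and 0.27 ± 0.18 in Sox4 cells (limma adjusted p = 0.257), so the direction in K/L cells differed between the probe sets. Without wild type array 3 the changes of 1424126_at were -0.048 and 0.17, while without wild type array 2 the change in Sox4 cells was 0.57 and passed (limma adjusted p = 0.0454).

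Alas2 (1451675_a_at), the erythroid synthase, measured 4.06, 4.23 and 4.20 in K/L cells, 4.85, 5.16 and 4.90 in Sox4 cells, and 4.72, 4.98 and 4.75 in wild type cells. It lay above the 40th percentile on 2 of 9 arrays, 1 of Sox4 and 1 of wild type cells. All K/L values lay below all values of the other groups. With no filter on low values, its difference was -0.65 ± 0.11 for K/L versus wild type (limma adjusted p = 0.00222) and -0.81 ± 0.11 for K/L versus Sox4 (limma adjusted p = 0.0015). For Sox4 versus wild type it was 0.15 ± 0.11 (limma adjusted p = 0.323). With an offset of 16 before the logarithm these values were -0.38, -0.48 and 0.10. All K/L values lay below the 40th percentile, and against it Sox4 cells were at least 1.09-fold higher.

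Alad, which encodes the cytosolic dehydratase that joins aminolevulinate molecules to porphobilinogen, measured 8.58, 8.52 and 8.59 in K/L cells, 8.14, 8.39 and 8.21 in Sox4 cells, and 7.39, 7.19 and 7.72 in wild type cells. The 3 groups did not overlap, with K/L cells on top. The rise was 1.13 ± 0.14 in K/L cells (limma adjusted p = 1e-04) and 0.81 ± 0.14 in Sox4 cells (limma adjusted p = 0.000855). Its other probe set, 1457306_at, lay below the filter. With the mean of both probe sets the changes were 0.36 in K/L cells (limma adjusted p = 0.035), 0.34 in Sox4 cells (limma adjusted p = 0.0469) and 0.022 between K/L and Sox4 cells (limma adjusted p = 0.921).

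Uros, the synthase that closes the linear tetrapyrrole into a ring, gave 6.72, 6.79 and 7.19 in K/L cells, 7.24, 7.19 and 7.48 in Sox4 cells, and 6.97, 6.90 and 7.27 in wild type cells (1423482_at). The groups overlapped, and the changes were -0.15 ± 0.15 in K/L cells (limma adjusted p = 0.457) and 0.26 ± 0.15 in Sox4 cells (limma adjusted p = 0.2). Probe set 1440535_at ran the other way in both comparisons, at 0.27 ± 0.15 and -0.24 ± 0.15, and also did not pass (limma adjusted p = 0.152 and 0.208 over 29174 probe sets).

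Urod, the cytosolic decarboxylase that follows, measured 10.32, 10.47 and 10.42 in K/L cells, 10.46, 10.35 and 10.44 in Sox4 cells, and 9.84, 9.61 and 10.21 in wild type cells (1443849_x_at). Wild type array 3 came closest to the leukaemic arrays, and the leukaemias overlapped with each other. The rise was 0.52 ± 0.14 in K/L cells (limma adjusted p = 0.0115) and 0.53 ± 0.14 in Sox4 cells (limma adjusted p = 0.0105). Without wild type array 3 it was 0.68 and 0.69. The suffix of this probe set marks probes that may bind related transcripts, but 1417206_at also rose, by 0.41 ± 0.14 in K/L cells (limma adjusted p = 0.034) and by 0.52 ± 0.14 in Sox4 cells (limma adjusted p = 0.0118).

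Cpox, the coproporphyrinogen oxidase with which the pathway returns to mitochondria, rose in both leukaemias. It measured 6.99, 7.30 and 6.88 in K/L cells, 7.30, 7.21 and 7.46 in Sox4 cells, and 5.76, 6.04 and 5.80 in wild type cells (1422493_at). Every leukaemic value lay above every wild type value. The rise was 1.19 ± 0.13 in K/L cells (limma adjusted p = 6.7e-05) and 1.45 ± 0.13 in Sox4 cells (limma adjusted p = 1.95e-05). In K/L cells this differed from the rise of Alad (1.13) by less than their standard errors, and without wild type array 3 the values were 1.15 for Cpox and 1.28 for Alad. Probe set 1422492_at gave larger rises of 1.66 ± 0.20 in K/L and 2.03 ± 0.20 in Sox4 cells, with wild type values of 4.76, 4.74 and 5.17 near the filter, and 1440747_at lay below the filter.

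Ppox, the oxidase that makes protoporphyrin, gave 6.92, 7.32 and 7.03 in K/L cells, 7.03, 7.28 and 6.80 in Sox4 cells, and 6.75, 6.94 and 6.82 in wild type cells (1416618_at). The groups overlapped, with changes of 0.25 ± 0.15 in K/L cells (limma adjusted p = 0.175) and 0.20 ± 0.15 in Sox4 cells (limma adjusted p = 0.288). Its second probe set, 1448065_at, measured 6.10, 5.61 and 6.20 in K/L cells, 6.03, 6.05 and 5.79 in Sox4 cells, and 6.78, 6.89 and 6.31 in wild type cells. All leukaemic values of that probe set lay below all wild type values, and it passed as lower, by -0.70 ± 0.19 in K/L cells and -0.71 ± 0.19 in Sox4 cells (limma adjusted p = 0.013 and 0.0129 over 29174 probe sets). The direction of Ppox therefore depends on the probe set.

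Fech encodes ferrochelatase, which places iron in protoporphyrin and so completes heme. It measured 9.47, 9.46 and 9.57 in K/L cells, 8.83, 9.02 and 8.82 in Sox4 cells, and 8.48, 8.61 and 8.43 in wild type cells (1418699_s_at). The 3 groups were fully separated, in the order K/L, Sox4, wild type. The rise was 0.99 ± 0.10 in K/L cells (limma adjusted p = 2.68e-05) and 0.38 ± 0.10 in Sox4 cells (limma adjusted p = 0.00957). In K/L cells, probe sets 1418698_a_at and 1449181_at also rose, by 0.87 ± 0.12 and 0.80 ± 0.18 (limma adjusted p = 0.000188 and 0.00465), while the dimmer 1427696_at did not pass (0.15 ± 0.25, limma adjusted p = 0.647). In Sox4 cells none of these other probe sets passed, with changes of 0.12 ± 0.12, 0.014 ± 0.18 and -0.41 ± 0.25. The rise of Fech in Sox4 cells thus rested on 1 of 4 probe sets, and the mean of all 4 gave 0.027 (limma adjusted p = 0.821).

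**Figure D2:**
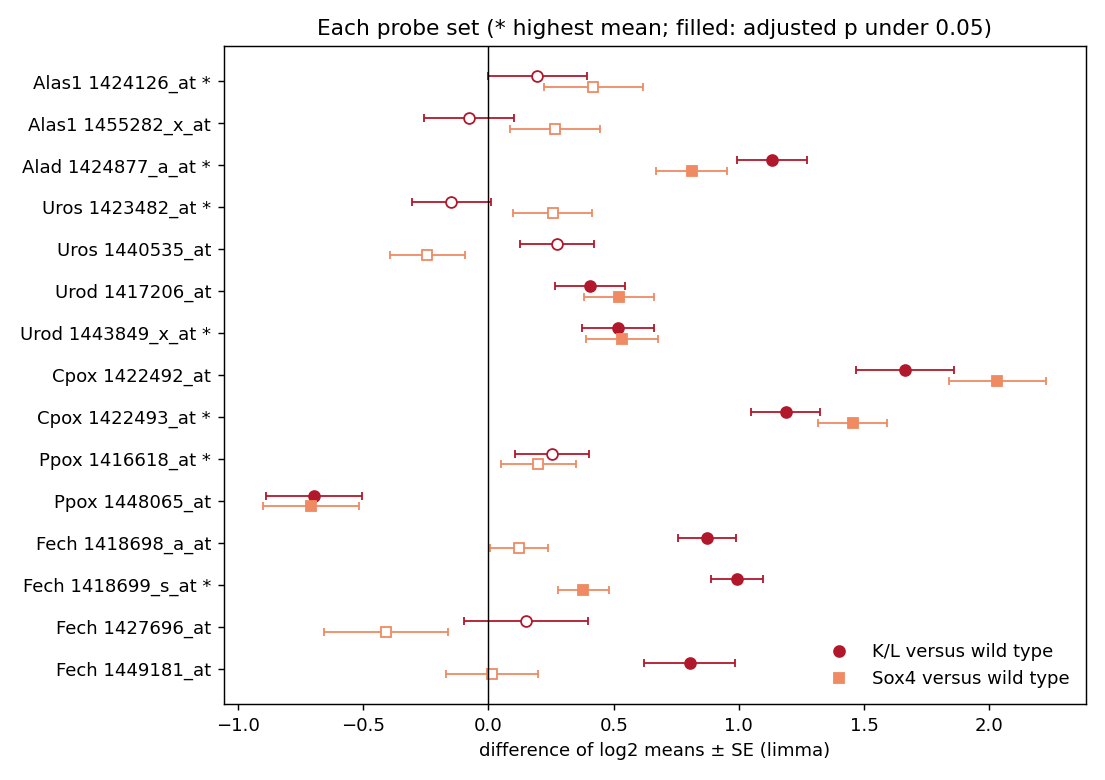
Difference of log2 means ± standard error for each of the 15 probe sets of the heme genes that met the filter, for K/L versus wild type (circles) and Sox4 versus wild type (squares), with filled symbols for an adjusted p under 0.05. In both comparisons the filled symbols above 0 belong to probe sets of Alad, Urod, Cpox and Fech. In Sox4 cells 1418699_s_at is the only filled probe set of Fech. The filled symbols below 0 belong to 1448065_at of Ppox in both comparisons.

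Setting K/L against Sox4 cells asks where the leukaemias differ. Fech was the 1 of 7 tested heme genes that passed, higher in K/L cells by 0.61 ± 0.10, or 1.53-fold (limma adjusted p = 0.00115), beside 14.7 percent of all tested genes called higher and 14.1 percent called lower. Of all calls 51.1 percent were thus higher, a share that was 63.4 percent with each array centred on its median. Probe sets 1418698_a_at and 1449181_at gave 0.75 ± 0.12 and 0.79 ± 0.18 (limma adjusted p = 0.00115 and 0.0105 over 29174 probe sets), and 1427696_at gave 0.56 ± 0.25 and did not pass (limma adjusted p = 0.131). All K/L arrays also lay above all Sox4 arrays for Alad, at 0.32 ± 0.14 (limma adjusted p = 0.112), which makes 2 of 7 genes with no overlap and K/L on top, beside 27.1 percent of all tested genes. Uros gave -0.40 ± 0.15 by 1423482_at (limma adjusted p = 0.0783). Its probe set 1440535_at passed the other way, higher in K/L cells by 0.52 ± 0.15 (limma adjusted p = 0.0278 over 29174 probe sets). The direction of Uros between the leukaemias therefore depends on the probe set. Cpox had a difference of -0.27 with a 95% interval of -0.57 to 0.03, and Urod one of -0.015 with an interval of -0.33 to 0.30. Without wild type array 3, which enters the shared estimate of spread, 3 genes passed in place of 1. These were Fech, Alad (limma adjusted p = 0.0267) and Uros, the last as lower by 1423482_at (limma adjusted p = 0.0465). In a fit of the K/L and Sox4 arrays alone, Alad passed as well (limma adjusted p = 0.0256).

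**Figure D3:**
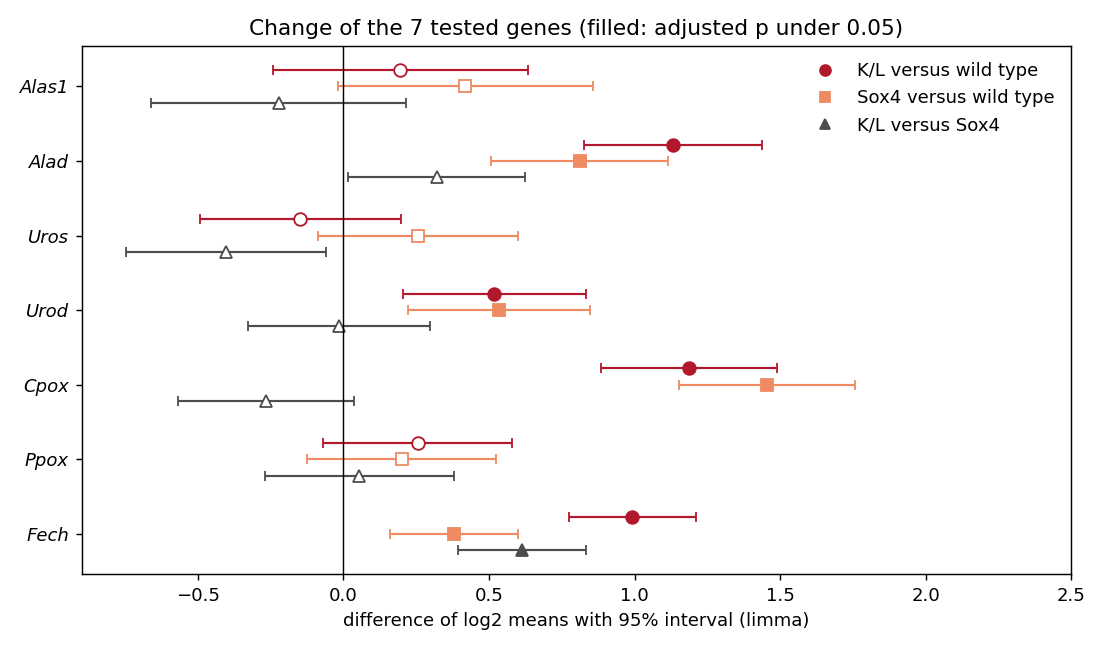
Difference of log2 means with its 95% interval for the 7 tested heme genes, for K/L versus wild type (circles), Sox4 versus wild type (squares) and K/L versus Sox4 (triangles), with filled symbols for an adjusted p under 0.05. Alad, Urod, Cpox and Fech are filled against wild type in both leukaemias, and Fech alone is filled between the leukaemias (0.61). For Fech in Sox4 versus wild type cells, no other probe set passed.

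Genes that feed and surround the pathway were taken from lists. Of 16 tested genes of mitochondrial heme and iron transport and iron-sulfur assembly, 7 rose and 2 fell in K/L cells, and 8 rose and 1 fell in Sox4 cells (medians 0.34 and 0.39, beside 0.05 and 0.03 for all tested genes). Over all tested genes, 28.7 percent rose and 21.6 percent fell in K/L cells, and 26.6 percent rose and 21.1 percent fell in Sox4 cells. Slc25a39, a mitochondrial carrier known for its part in glutathione import and heme synthesis, measured 10.44, 10.40 and 10.48 in K/L cells, 10.52, 10.46 and 10.43 in Sox4 cells, and 9.41, 9.40 and 9.19 in wild type cells. Both leukaemias lay above wild type and overlapped with each other. The rise was 1.11 ± 0.09 in K/L cells and 1.14 ± 0.09 in Sox4 cells (limma adjusted p = 9.74e-06 and 9.17e-06). Slc25a38, which brings glycine into mitochondria for the first step, rose by 0.76 ± 0.09 in K/L and 0.40 ± 0.09 in Sox4 cells (limma adjusted p = 0.000119 and 0.00581). Glrx5, an iron-sulfur assembly factor, rose by 0.80 ± 0.11 in K/L and 0.45 ± 0.11 in Sox4 cells (limma adjusted p = 0.000296 and 0.00896). Pgrmc1, a heme-binding protein that associates with ferrochelatase, rose by 0.89 ± 0.13 in K/L cells (limma adjusted p = 0.000315). Pgrmc1 was also higher in K/L than in Sox4 cells, by 1.04 ± 0.13 (limma adjusted p = 0.000216). In Sox4 cells the porphyrin transporter gene Abcb6 rose by 0.80 ± 0.12 and the scaffold gene Iscu by 0.58 ± 0.09 (limma adjusted p = 0.000337 and 0.000486). Isca2 changed by -0.49 ± 0.11 in K/L and -0.50 ± 0.11 in Sox4 cells (limma adjusted p = 0.00431 and 0.00373).

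Of 10 tested genes of heme and iron transport across cell membranes, 4 rose and 6 fell in K/L cells (28.7 and 21.6 percent of all tested genes), and 5 rose and 0 fell in Sox4 cells (26.6 and 21.1 percent). Between K/L and Sox4 cells 0 were higher and 7 lower in K/L (14.7 and 14.1 percent). The medians were -0.78, 0.42 and -0.80, beside 0.05, 0.03 and 0.03 for all tested genes. Both counts of 0 in limma were also 0 at an unadjusted p under 0.05. Abcg2, a transporter that exports porphyrins, measured 4.70, 3.74 and 4.45 in K/L cells, 8.07, 7.74 and 8.28 in Sox4 cells, and 7.86, 7.36 and 8.46 in wild type cells. The K/L values lay below the 40th percentile of the arrays and under both other groups, at least 8.24-fold lower than wild type and at least 9.04-fold lower than Sox4 cells (limma adjusted p = 9.67e-06 and 1.24e-05). Flvcr1, which exports heme from the cell, measured 7.09, 6.70 and 7.07 in K/L cells, 8.18, 8.05 and 8.32 in Sox4 cells, and 8.35, 8.10 and 8.28 in wild type cells. All K/L arrays lay below all others, by -1.29 ± 0.13 against wild type (limma adjusted p = 3.66e-05) and by -1.23 ± 0.13 against Sox4 cells (limma adjusted p = 9.21e-05). The iron exporter gene Slc40a1 was at least 3.14-fold lower in K/L cells (limma adjusted p = 0.000407), with wild type values that spread between 5.54 on array 3 and 7.31 on array 2. Tfrc, the transferrin receptor gene that brings iron in, changed by -0.82 ± 0.13 in K/L cells (limma adjusted p = 0.000643) and was named after its values were seen. Tfr2, a second transferrin receptor gene, was at least 5.26-fold higher in K/L and at least 5.83-fold higher in Sox4 cells, by a probe set ending in _x_at. By another probe set its log2 changes were smaller, at 1.89 in K/L and 1.99 in Sox4 cells, against fitted changes of 3.35 and 3.49. Cd163, the scavenger receptor for haemoglobin, was at least 1.99-fold higher in K/L and at least 4.6-fold higher in Sox4 cells, with wild type values of 3.50, 3.46 and 3.74. Slc48a1, the gene of an endosomal heme transporter, rose by 1.06 ± 0.11 in K/L and 0.90 ± 0.11 in Sox4 cells.

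Of 8 iron storage and sensing genes, 4 rose and 2 fell in K/L cells (28.7 and 21.6 percent of all tested genes), and 4 rose and 3 fell in Sox4 cells (26.6 and 21.1 percent). Fth1, the heavy chain of ferritin, rose by 0.90 ± 0.09 in K/L and 0.92 ± 0.09 in Sox4 cells (limma adjusted p = 2.76e-05 and 2.59e-05), and Hfe by 1.97 ± 0.22 and 1.67 ± 0.22. With the probe set of largest variance, Fth1 rose by 2.25 in K/L and 1.81 in Sox4 cells. Pcbp1, which carries iron to ferritin, rose by 0.90 ± 0.09 in K/L and 0.61 ± 0.09 in Sox4 cells. Ireb2, an iron-sensing protein that holds back ferritin translation, changed by -0.93 ± 0.12 in K/L and -0.85 ± 0.12 in Sox4 cells (limma adjusted p = 0.000127 and 0.000245). Of the 4 heme degradation genes, both biliverdin reductase genes rose in each leukaemia and neither heme oxygenase gene passed. Beside them, 28.7 percent of all tested genes rose and 21.6 percent fell in K/L cells, and 26.6 and 21.1 percent in Sox4 cells. Blvra rose by 1.42 ± 0.12 in K/L and 2.60 ± 0.12 in Sox4 cells, and Blvrb was at least 3.59-fold higher in K/L and at least 2.87-fold higher in Sox4 cells. Hmox1, the heme-inducible oxygenase, measured 5.58 ± 0.36 in K/L, 5.31 ± 0.20 in Sox4 and 5.28 ± 0.16 in wild type cells (SD, n = 3 each). Among 10 genes that supply glycine and succinyl-CoA, 5 rose and 2 fell in K/L cells (28.7 and 21.6 percent of all tested genes), and 2 rose and 1 fell in Sox4 cells, shares no higher than the 26.6 and 21.1 percent of all tested genes. Shmt2, which makes glycine in mitochondria, rose by 0.84 ± 0.11 in K/L and 0.71 ± 0.11 in Sox4 cells, and Ogdh, a subunit of the complex that makes succinyl-CoA, by 0.76 ± 0.14 and 1.40 ± 0.14. With the mean of its probe sets Ogdh rose by 0.38 in K/L cells.

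**Figure D4:**
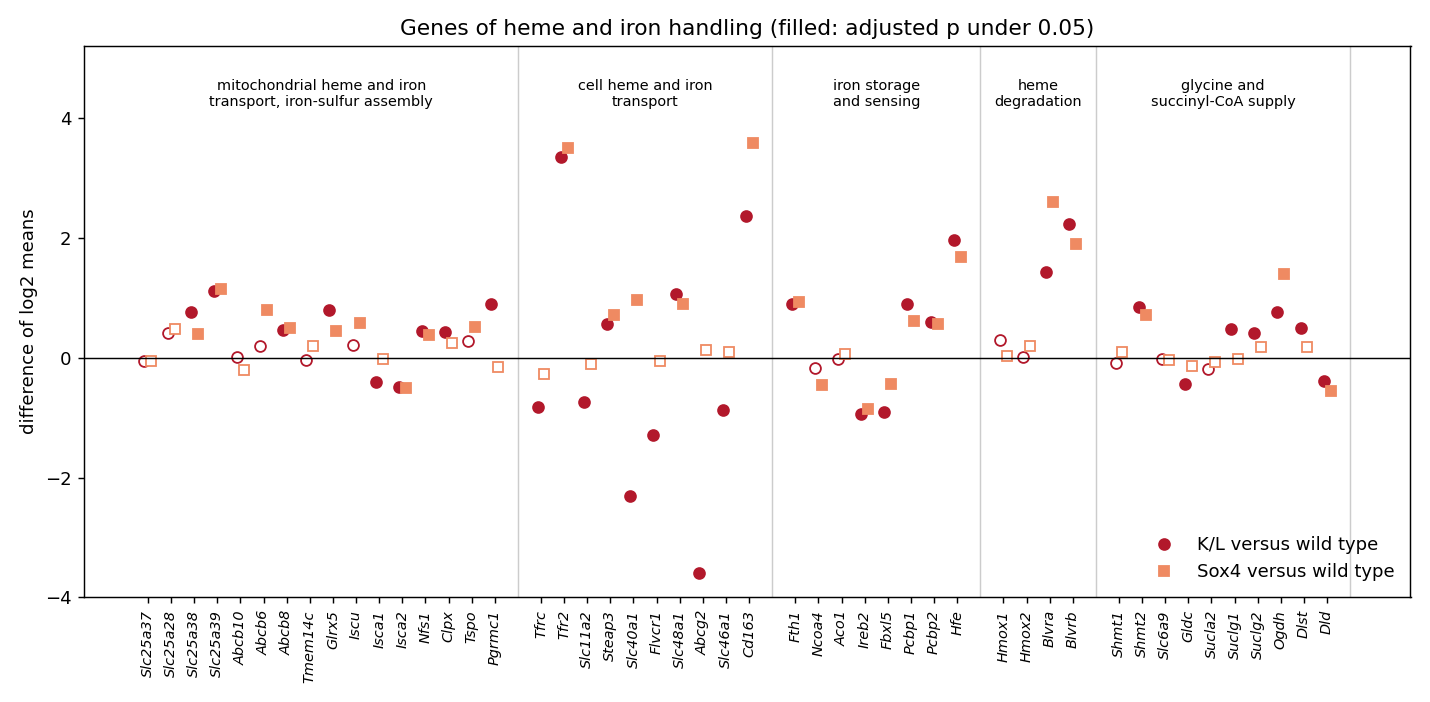
Difference of log2 means for the tested genes of 5 lists of heme and iron handling, for K/L versus wild type (circles) and Sox4 versus wild type (squares), with filled symbols for an adjusted p under 0.05. Within cell heme and iron transport, 6 K/L symbols are filled below 0, down to Abcg2 (a fitted -3.60 against dim K/L values), and no Sox4 symbol is.

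Of 14 tested regulators of heme and erythroid genes, 6 rose and 3 fell in K/L cells (28.7 and 21.6 percent of all tested genes), and 8 rose and 2 fell in Sox4 cells (26.6 and 21.1 percent). Bach1, a repressor that heme binds and inactivates, changed by -0.82 ± 0.14 in K/L and -0.88 ± 0.14 in Sox4 cells (limma adjusted p = 0.000878 and 0.000568) and was named after its values were seen. Gata1, the erythroid activator of Alas2, measured 5.46 ± 0.12 in K/L, 7.12 ± 0.04 in Sox4 and 5.75 ± 0.37 in wild type cells (SD, n = 3 each), a rise of 1.37 ± 0.16 in Sox4 cells (limma adjusted p = 1e-04). Gfi1b rose by 2.01 ± 0.17 in K/L and 2.02 ± 0.17 in Sox4 cells, and Gata2 by 1.35 ± 0.21 and 0.96 ± 0.21. In K/L cells the GATA1 partner Tal1 was at least 4.09-fold lower, and its partner Lmo2 changed by -1.36 ± 0.11 (limma adjusted p = 2.76e-06 and 5.86e-06). In Sox4 cells Ppargc1b, a coactivator of mitochondrial genes, was at least 4.65-fold higher, and Nfe2 changed by -1.15 ± 0.11.

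Markers of other cell types moved with the groups. The summed intensity of 14 erythroid markers was 527 to 541 in K/L, 1507 to 1612 in Sox4 cells and 333 to 343 in wild type cells. Of 10 tested members, 4 were higher in K/L and 6 in Sox4 cells, beside 28.7 and 26.6 percent of all tested genes. In Sox4 cells Car1 was at least 8.36-fold and Aqp1 at least 2.81-fold higher, and Car2 rose by 4.41 ± 0.21. Tspan33 was at least 4.08-fold higher in K/L and at least 5.69-fold higher in Sox4 cells. Rhag, of the red cell membrane, was at the floor of 3 on every array but 1, and Slc4a1, Kel and Trim10 lay below the filter. Of 6 globin genes on the array with 1 symbol, 2 were tested, and Hba-a2 changed by -0.41 ± 0.09 in K/L and by -0.58 ± 0.09 in Sox4 cells (limma adjusted p = 0.00377 and 0.000486). Hba-a2 has a near-identical copy, so its signal cannot be assigned to it alone. The summed intensity of 8 eosinophil, mast cell and basophil markers was 6432 to 6628 in K/L, 2302 to 3115 in Sox4 cells and 967 to 1461 in wild type cells. Its members did not move together: Prg3, Mcpt8 and Cpa3 were higher in K/L than in Sox4 cells, while Prg2, Epx, Ms4a2 and Gzmb were lower. The median was -2.21 over 7 tested, beside 14.7 percent of all tested genes called higher and 14.1 percent lower. Against wild type, 4 rose and 1 fell in K/L cells (28.7 and 21.6 percent of all tested genes). In Sox4 cells 4 rose and 0 fell, also 0 at an unadjusted p under 0.05 (26.6 and 21.1 percent). The summed intensity of 6 monocyte markers was 2490 to 2932, 6366 to 6697 and 1466 to 1634 in the same groups. Of these, 3 rose and 1 fell in K/L cells (28.7 and 21.6 percent of all tested genes). In Sox4 cells 5 rose and 1 fell (26.6 and 21.1 percent). The 1 that fell was Adgre1 in both, by -0.41 ± 0.13 in K/L and -3.22 ± 0.13 in Sox4 cells. For 10 neutrophil granule markers the sums in the same order were 29115 to 30538, 44433 to 45145 and 52418 to 55277. In K/L cells 1 of these rose and 5 fell (28.7 and 21.6 percent of all tested genes). In Sox4 cells 5 rose and 2 fell (26.6 and 21.1 percent, median 0.53), unlike the sum. The 2 that fell there were the bright S100a8 and S100a9, by -2.19 ± 0.19 and -2.62 ± 0.28. The sum of 9 megakaryocyte markers overlapped between K/L (2113 to 2538), Sox4 (2121 to 3127) and wild type arrays (2155 to 2407), but its members moved. Of 7 tested, 0 rose (also 0 at an unadjusted p under 0.05) and 2 fell in K/L cells by limma, 6 rose and 1 fell in Sox4 cells, and 1 was higher and 6 lower in K/L than in Sox4 cells. Over all tested genes the matching shares were 28.7 and 21.6 percent, 26.6 and 21.1 percent, and 14.7 and 14.1 percent. Pf4 was at least 39.4-fold higher in Sox4 than in wild type cells, while the bright Itgb3 changed by -1.25 ± 0.12; both were named after their values were seen. For 7 B, T and NK cell markers the sum was 467 to 493 in K/L cells, 494 to 578 in Sox4 cells and 259 to 270.4 in wild type cells. Of 5 tested, 2 rose in K/L cells (28.7 percent of all tested genes). In Sox4 cells 1 rose and 1 fell (26.6 and 21.1 percent, median 0.01). There Cd79b rose by 1.90 ± 0.11, while Cd79a was at least 1.03-fold lower. For RNA quality, the Gapdh control probe sets gave a 3′ over 5′ ratio of 1.93 to 2.00 in K/L, 2.22 to 2.44 in Sox4 cells and 2.68 to 2.91 in wild type cells. The ratio of the actin control probe sets overlapped between the groups, at 0.866 to 0.913, 0.881 to 0.915 and 0.885 to 0.976 in the same order. The part of these markers and of RNA quality in the rises of Alad, Urod, Cpox and Fech was not tested.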

How the data were processed

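Per the labels' protocols, 5 ug of total RNA gave the biotin-labelled cRNA for each Affymetrix array. The authors deposited intensity values on a linear scale for 45101 probe sets and 9 samples, with a floor of 8. Per the submitters' processing notes, RMA was used, with no version named; no further step is stated in the sources used here. Groups came from the sample titles. Values were log2 transformed and not rescaled. Names came from GEO's annotation of the platform, dated 2016 (34958 with 1 symbol, 932 with several, 9211 with none), and 18033 symbols were checked by gene ID against GRCm38.p6 names, with 0 changed. Differences were tested with limma 3.58.1 in R 4.3.3 (6 residual and 3.64 prior degrees of freedom) and the procedure was tested on simulated data. The heme genes and the gene lists were chosen with earlier results of these data known. From each list, up to 4 tested members with the smallest p per comparison were named, with the exceptions marked. Alternatives covered scaling, filter, probe set choice, an offset, the variance model, the arrays in the fit and a replicate block. Same-numbered arrays of different groups deviated from their group means with r between -0.022 and 0.0777, so the numbers were not taken to pair arrays.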

Additional observations from a re-analysis of the deposited data

Results flagged for a closer look

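Fech is given here because its rise over the shared wild type arrays differed between the leukaemias by a test of the difference itself. It was higher in K/L than in Sox4 cells by 0.61 on the log2 scale (limma adjusted p = 0.00115), with 3 of 3 K/L arrays above all Sox4 arrays. The alternatives gave 0.58 to 0.79, with adjusted p between 0.000289 and 0.00821 in limma.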

How the results depend on the processing

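Of the results for single heme genes under 20 alternatives (13 for Alas2), 434 kept their direction and side of the threshold, 15 turned direction, 2 were lost, 6 were gained and 2 moved. Alad, Urod, Cpox and Fech passed against wild type in K/L cells under all 20, and Alad, Urod and Cpox in Sox4 cells under all 20. Fech in Sox4 cells was lost when a gene's probe sets were averaged (0.027) and with the probe set of largest variance (0.014). With averaged probe sets, the direction turned for Ppox in K/L cells (-0.16) and in Sox4 cells (-0.18), and for Uros in K/L against wild type (0.063) and against Sox4 cells (0.057). With the probe set of largest variance it turned for Uros in the 3 comparisons (0.27 in K/L and -0.24 in Sox4 cells against wild type, 0.52 in K/L against Sox4) and for Ppox in K/L (-0.70) and Sox4 cells (-0.71). Between the leukaemias, Urod turned to 0.065 with each array centred on its median. Over the fits that left out 1 array, Urod between the leukaemias ran from -0.047 to 0.025 (above 0 without K/L array 1 or Sox4 array 1), Ppox between them from -0.063 to 0.177 (below 0 without K/L array 2 or Sox4 array 3), and Alas1 in K/L cells from -0.048 (without wild type array 3) to 0.346. The count of heme genes past the test between the leukaemias was 2 in place of 1 with no filter, with the probe set of largest variance, with only the compared groups and with the replicate block, where Uros passed (limma adjusted p = 0.0163), and it ran from 1 to 3 over the fits that left out 1 array (2 without K/L array 3, with Uros, and 3 without wild type array 3). The replicate block changed no other call on a heme gene. With arrays centred on their medians, 63.4 percent of all calls between the leukaemias were higher, against 51.1 percent as reported. The causes were not tested. Using probe sets ending in _x_at only for genes with no other was chosen after seeing the data and left 4, 4 and 1 heme genes past the test. Dim signal limits Alas2, Cpox 1422492_at and every change given as a lower bound.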

Other observations

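Of 13 tested hemoprotein and heme-handling genes, 2 rose and 3 fell in K/L cells (28.7 and 21.6 percent of all tested genes), and 4 rose and 1 fell in Sox4 cells (26.6 and 21.1 percent), with 8 not past the test in each. Mpo, the myeloperoxidase gene and a major use of heme in these cells, measured 13.81 ± 0.04 in K/L, 13.90 ± 0.03 in Sox4 and 13.88 ± 0.07 in wild type cells (SD, n = 3 each). Hebp1, a heme-binding protein gene, was at least 4.39-fold higher in K/L and at least 4.1-fold higher in Sox4 cells (limma adjusted p = 1.43e-06 and 2.15e-06). Cybb, the heme-bearing subunit of the phagocyte oxidase, changed by -1.83 ± 0.43 in K/L and 2.21 ± 0.43 in Sox4 cells (limma adjusted p = 0.0056 and 0.00203). Its wild type values were 8.19, 8.21 and 6.46, lowest on array 3, so the sizes depend on that array. Epx, the eosinophil peroxidase gene, was at least 5.14-fold higher in Sox4 cells.

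The synthase genes followed different partners over the 9 arrays, as a description that 3 groups of arrays shape. The tested genes most like Alas1 by Pearson r were Rab3a (0.969), Dhx16 (0.968), Ckap4 (0.952), Esrp2 (0.943) and Ubac1 (0.941), each with its lowest value on wild type array 3. Those most like Alas2 were Tbkbp1 (0.983), 4930471G03Rik (0.974), Lamtor4 (0.970), Atp8a1 (0.968) and Tcf4 (0.964), each with all K/L values below all values of the other groups. Alas1 and Alas2 themselves had r = 0.248. Among the genes that rose, Alad had r = 0.897 with Urod, 0.866 with Fech and 0.810 with Cpox. The other pairs gave 0.808 for Urod with Cpox, 0.641 for Cpox with Fech and 0.596 for Urod with Fech. These genes were named for rising in both leukaemias, so part of their likeness follows from that choice.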
